A study of Mus musculus with 8 samples.

Results

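The genes described here are 41 regulators of the cell cycle and of DNA replication, taken by symbol from the mRNA table of a mouse liver RNA-Seq study. They make up 41 of the 22564 protein-coding genes in that table. Of the 41, 35 promote proliferation and 6 are cell cycle inhibitors, and the groups are kept apart throughout. The study compared livers of 4 mice on a high fructose diet (HFrD; 10% of kcal from fat, 70% from carbohydrate and 20% from protein) for 2 weeks with livers of 4 mice kept on a normal diet (ND) for the same time. All 8 were male C57BL/6J mice, 10 to 11 weeks old when purchased, before the feeding, with no other treatment or allele named. Each mouse gave 1 library of whole liver. The mice carry the numbers 1, 2, 5 and 7 (HFrD) and 1, 3, 6 and 7 (ND), and values by mouse are given in that order below. HFrD feeding is used as a model of fructose-induced fatty liver, and the question put to these genes is whether 2 weeks of it changed the mRNA of the cell cycle machinery.

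Cells that divide pass through G1, S, G2 and M phase, and each step is driven by a cyclin bound to a cyclin-dependent kinase (CDK). D-type cyclins with CDK4 and CDK6, then E-type cyclins with CDK2, inactivate the retinoblastoma protein and free E2F factors, which switch on the genes of DNA replication. Those genes encode the MCM helicase, the sliding clamp PCNA and the enzymes that supply deoxynucleotides. Genes of mitosis follow later, under B-MYB, FOXM1 and release from the DREAM complex, and CDK inhibitors hold cells in G1. Adult hepatocytes are largely quiescent and re-enter the cycle after tissue loss or injury, whereas Kupffer cells, the resident macrophages of the liver, renew themselves by division. Whole liver RNA holds all of these cells, so a higher level from more cells of a type cannot be told apart from more RNA per cell.

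Of the 35 proliferation genes, 3 were significantly higher in HFrD than in ND livers: Mcm3, a subunit of the replicative helicase, Rrm2, the small subunit of ribonucleotide reductase, and Ccne1, the cyclin E1 of the G1 to S transition. No proliferation gene was significantly lower, and none of the 6 inhibitors passed the test in either direction. Levels are given in FPKM (fragments counted on a gene, divided by transcript length and library size), and every ± is the SD over the 4 mice of a diet. Differences were tested with limma on log2(FPKM + 1) in the 11476 genes that averaged 0.5 FPKM or more over the 8 libraries, at an adjusted p under 0.05, and a log2 fold change is always HFrD over ND on that scale, which understates the change of low genes. Of the 41 genes, 28 met this minimum, 24 for proliferation and 4 inhibitors, and 13 did not. Among all genes tested, 5.44% were called higher, 3.69% lower and 9.12% in either direction, and the 3 calls are 12.5% of the 24 proliferation genes tested. Of the 3, Ccne1 averaged 0.191 FPKM in ND mice and met the minimum only through its HFrD values.

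Promoters of 5 of these genes are shown because they carry, or lack, the DNA letters by which cell cycle genes are usually grouped. They are the 3 genes called higher and 2 further MCM genes, Mcm5 and Mcm6, whose HFrD and ND values did not overlap. Each is the RefSeq sequence (GRCm38.p6) from 250 bases before to 50 bases after the gene's annotated start, written 5′ to 3′ on the gene's strand, with matches to the 3 patterns described after them in capitals.
Mcm3 (chr1:20820263-20820562, - strand): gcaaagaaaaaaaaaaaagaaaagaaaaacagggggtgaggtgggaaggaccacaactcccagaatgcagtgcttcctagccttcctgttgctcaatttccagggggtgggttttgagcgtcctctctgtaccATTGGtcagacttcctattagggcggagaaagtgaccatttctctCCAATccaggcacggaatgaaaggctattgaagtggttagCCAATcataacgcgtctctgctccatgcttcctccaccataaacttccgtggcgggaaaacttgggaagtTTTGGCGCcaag
Mcm5 (chr8:75109259-75109558, + strand): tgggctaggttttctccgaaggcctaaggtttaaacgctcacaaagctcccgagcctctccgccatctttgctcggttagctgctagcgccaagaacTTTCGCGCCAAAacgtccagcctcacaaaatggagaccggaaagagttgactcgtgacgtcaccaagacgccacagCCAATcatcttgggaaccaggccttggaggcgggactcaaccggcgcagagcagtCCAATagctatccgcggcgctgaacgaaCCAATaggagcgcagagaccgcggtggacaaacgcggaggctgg
Mcm6 (chr1:128359656-128359955, - strand): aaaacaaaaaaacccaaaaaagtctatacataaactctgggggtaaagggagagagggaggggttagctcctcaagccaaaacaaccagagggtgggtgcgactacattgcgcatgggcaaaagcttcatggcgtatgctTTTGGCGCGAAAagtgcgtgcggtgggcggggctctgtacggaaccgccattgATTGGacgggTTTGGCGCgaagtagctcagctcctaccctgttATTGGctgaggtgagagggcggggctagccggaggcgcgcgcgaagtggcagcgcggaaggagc
Rrm2 (chr12:24708004-24708303, + strand): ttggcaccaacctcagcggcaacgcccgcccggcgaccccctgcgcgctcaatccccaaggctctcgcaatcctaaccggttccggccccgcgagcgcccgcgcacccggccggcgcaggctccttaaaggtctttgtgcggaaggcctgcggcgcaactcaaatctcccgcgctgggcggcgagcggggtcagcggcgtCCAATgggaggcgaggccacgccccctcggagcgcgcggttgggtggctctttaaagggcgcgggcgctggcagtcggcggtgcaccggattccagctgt
Ccne1 (chr7:38107441-38107740, - strand): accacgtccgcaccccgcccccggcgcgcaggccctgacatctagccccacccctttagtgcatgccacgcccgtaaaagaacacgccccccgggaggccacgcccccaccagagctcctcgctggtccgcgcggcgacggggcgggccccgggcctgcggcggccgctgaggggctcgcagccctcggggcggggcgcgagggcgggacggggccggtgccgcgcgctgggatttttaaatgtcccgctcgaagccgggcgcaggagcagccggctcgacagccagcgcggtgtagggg

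The patterns searched on both strands were CCAAT (bound by NF-Y), the cell cycle homology letters TTTGAA of genes repressed by DREAM, and the E2F letters TTTCGCGC or TTTGGCGC. No pattern contains another. Promoter entries were matched for 33 of the 41 genes, 27 for proliferation and all 6 inhibitors; Ccna2, Ccnd1, Ccnd2, Ccne2, Mcm4, Aurkb, Foxm1 and Myc had none. The E2F letters were found in 5 of the 27 matched proliferation genes (Cdk1, Mcm3, Mcm5, Mcm6 and Mcm7), in none of the 6 inhibitors, and in 0.813% of the 32851 promoters of the same length. Mcm6 held 3 such matches, Mcm5 2, and Mcm3 1, of which a pair overlaps in Mcm5 and in Mcm6. CCAAT was found in 20 of the 27 (74.1%), against 37.4% of all promoters, and in 5 of the 6 inhibitors. Ccnd3, Mcm7, Cdkn1a and Cdkn2c had 2 promoter entries each and count if either matched, while the shares of all promoters count each entry. CCAAT in Ccnd3 and Cdkn2c, and the E2F letters in Mcm7, were found in only 1 of their 2 entries. The letters TTTGAA occurred in 9 of the 27, namely Ccnb2, Cdk1, Mcm2, Mki67, Top2a, Bub1b, Aurka, Plk1 and Cdc20, against 17.9% of all promoters, and in no inhibitor. The promoter of Rrm2 showed 1 CCAAT match and that of Ccne1 no match. These matches describe the letters only.

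The helicase that unwinds DNA ahead of the replication fork is a ring of 6 subunits, Mcm2 to Mcm7, and all 6 had a positive log2 fold change. The largest was that of Mcm3, which had 1.41, 1.54, 1.29 and 2.07 FPKM in HFrD mice, against 0.609, 0.331, 0.447 and 0.638 FPKM in ND mice. The lowest HFrD value, 1.29 FPKM, lay well above the highest ND value, 0.638 FPKM. Its log2 fold change was 0.77 (SE 0.14, limma adjusted p = 0.00926), with a ratio of mean FPKM of 3.11, and Mcm3 was called whichever single mouse was removed (8 of 8 fits, adjusted p at most 0.0300). With a pseudocount of 0.1 in place of 1, the log2 fold change of Mcm3 was 1.48 (limma adjusted p = 0.0110). By the estimate of depth given further on, the Mcm3 values rest on 180 fragments over the HFrD and 47.6 over the ND libraries.

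Mcm6 and Mcm5 lay next. Mcm6 had 2.18, 1.59, 1.65 and 2.90 FPKM in HFrD mice, against 1.07, 1.42, 1.13 and 0.948 FPKM in ND mice, a log2 fold change of 0.51 (SE 0.15, limma adjusted p = 0.0661). Mcm5 had 0.717, 0.599, 0.607 and 1.67 FPKM in HFrD mice, against 0.487, 0.368, 0.281 and 0.380 FPKM in ND mice, a log2 fold change of 0.43 (SE 0.18, limma adjusted p = 0.161). In both genes all 4 HFrD values lay above all 4 ND values, and neither passed the adjusted threshold. For Mcm5, HFrD mouse 7 stood apart from the other 3 HFrD mice. The remaining subunits differed less than their spread, with overlapping values. Mcm4 averaged 1.40 ± 0.382 FPKM on the HFrD, against 1.11 ± 0.150 FPKM on the ND, Mcm7 5.64 ± 0.204 FPKM on the HFrD, against 5.22 ± 1.58 FPKM on the ND, and Mcm2 0.751 ± 0.197 FPKM on the HFrD, against 0.613 ± 0.0614 FPKM on the ND, with log2 fold changes of 0.18, 0.13 and 0.11. The sign for Mcm2 turned negative after quantile normalization. Pcna, the sliding clamp that holds polymerase on DNA, had the second highest level of all tested proliferation genes and averaged 19.0 ± 3.32 FPKM on the HFrD, against 16.1 ± 1.29 FPKM on the ND (log2 fold change 0.22, SE 0.12, limma adjusted p = 0.304). Pcna also serves in DNA repair. Summed over the 6 helicase subunits and Pcna, levels were 35.4, 30.6, 29.2 and 30.3 in HFrD mice, against 26.1, 25.3, 25.2 and 23.5 in ND mice, and the groups did not overlap. Pcna supplied most of that sum.

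**Figure D1:**
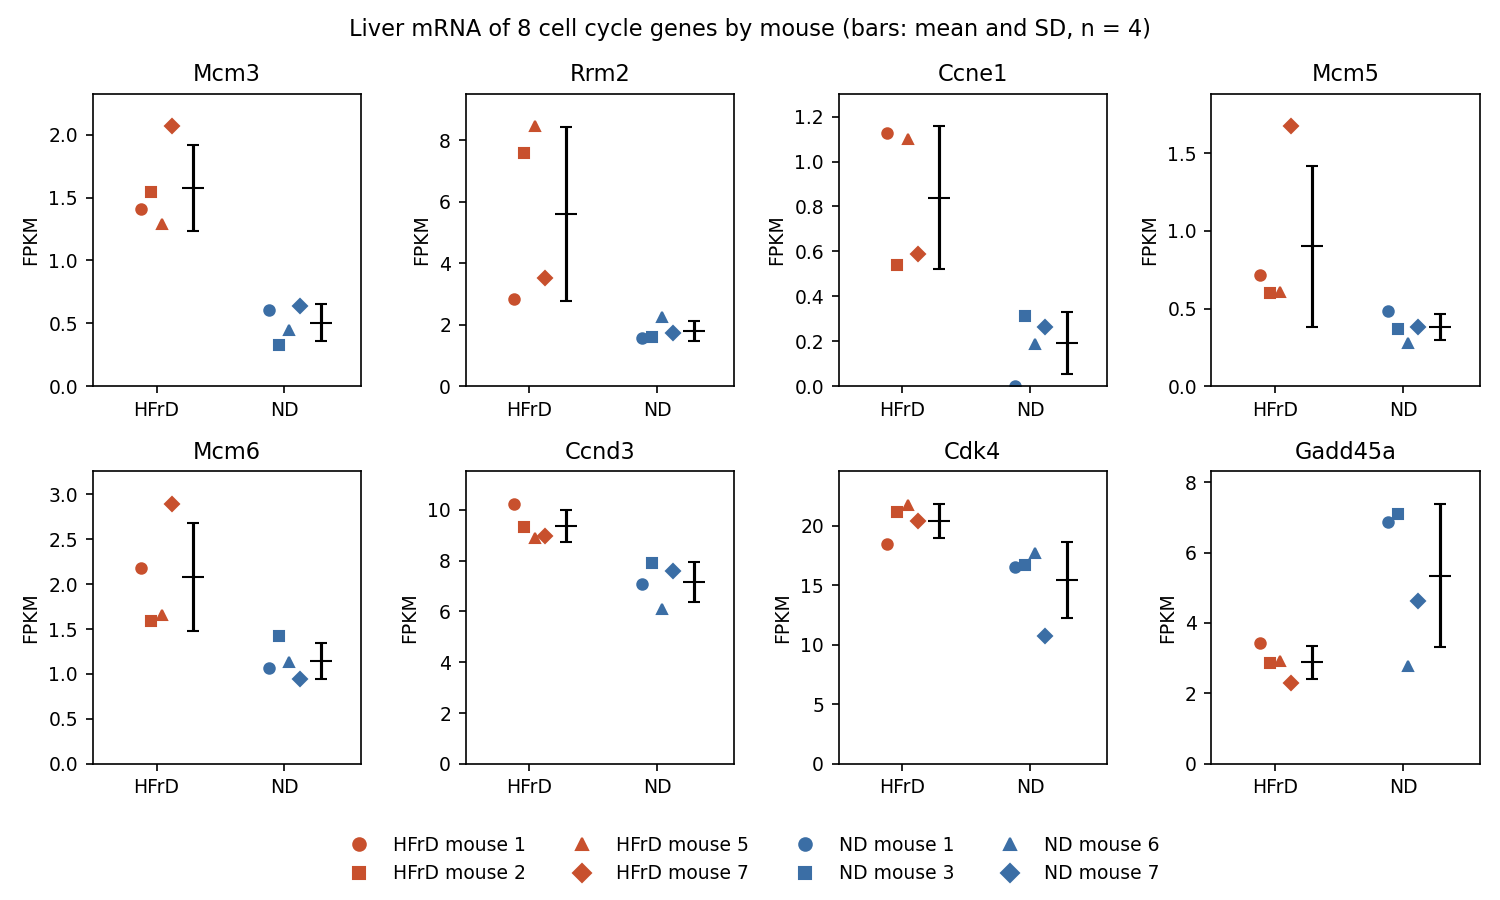
FPKM (vertical axes) of 8 cell cycle genes in each of the 4 HFrD mice (left, red) and 4 ND mice (right, blue), with a marker shape per mouse and bars for the mean and SD. Mcm3 lay between 1.29 and 2.07 FPKM in HFrD mice and between 0.331 and 0.638 FPKM in ND mice, and Gadd45a is the gene of the 8 with the lower HFrD mean.

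Ribonucleotide reductase makes deoxynucleotides from ribonucleotides, with Rrm1 as its large and Rrm2 as its small, cell cycle limited subunit. Rrm2 showed the largest positive log2 fold change of the 28 genes. It had 2.83, 7.60, 8.47 and 3.51 FPKM in HFrD mice, against 1.57, 1.59, 2.27 and 1.73 FPKM in ND mice, a log2 fold change of 1.14 (SE 0.28, limma adjusted p = 0.0312) and a ratio of means of 3.13. HFrD mice 2 and 5 were well above HFrD mice 1 and 7, and even the lowest HFrD value exceeded the highest ND value. With single mice removed, Rrm2 was called in 2 of 8 fits (adjusted p at most 0.0807, without ND mouse 3). The call was also lost after quantile normalization (limma adjusted p = 0.0522) and without the FPKM minimum (limma adjusted p = 0.0699). Rrm2 was also picked by the study from these same libraries, so its direction is not independent evidence. Rrm1 had 2.34, 3.09, 3.12 and 3.50 FPKM in HFrD mice, against 2.06, 2.43, 1.76 and 2.14 FPKM in ND mice, with a log2 fold change of 0.37 (SE 0.13, limma adjusted p = 0.101). HFrD mouse 1 lay within the ND range of Rrm1, and the groups overlapped.

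Thymidine kinase 1 (Tk1), which salvages thymidine and is normally made in S phase, had the most negative log2 fold change of the 28 genes. It had 16.2, 5.82, 7.91 and 9.60 FPKM in HFrD mice, against 22.6, 14.4, 16.3 and 15.0 FPKM in ND mice. Only HFrD mouse 1 reached into the ND range, and the log2 fold change was -0.80 (SE 0.25, limma adjusted p = 0.0777). Tk1 passed the threshold with all 8 mice under array weights, which weight each library by its variability (log2 fold change -0.91, limma adjusted p = 0.0402). It also passed when HFrD mouse 1 was left out (adjusted p = 0.00888) and, with mouse 1 and ND mouse 7 both left out, in the fit chosen after seeing the data (log2 fold change -1.10, adjusted p = 0.0149). On this per-length scale the level of Tk1 was above those of Rrm1 and Tyms in all 8 mice and above that of Rrm2 in all but HFrD mice 2 and 5. In GENCODE M21 the exons of Tk1 share 83 bases with those of Afmid, an enzyme of tryptophan breakdown on the opposite strand, and the deposited table gives both genes the same locus. Afmid had 32.7, 29.2, 23.9 and 22.8 FPKM in HFrD mice, against 58.5, 49.0, 41.8 and 56.8 FPKM in ND mice, without overlap, and was significantly lower in HFrD livers, with a log2 fold change of -0.90 (SE 0.14, limma adjusted p = 0.00539). Divided by Afmid, Tk1 gave 0.200 to 0.497 in the HFrD and 0.265 to 0.390 in the ND group, and the ranges overlapped. The labels and the study's methods name different library kits, both of which keep strand, but no source used here says whether counting used it. If it did not, fragments from the shared bases cannot be told apart. The exons of Mcm3, Mcm5, Mcm6, Rrm2 and Ccne1 overlap no other annotated gene. The deposited table nevertheless gives Rrm2 the same locus as Klf11 and Cys1. Exons of Ccna2, Ccnd1, Ccnd3, Ccne2, Cdc20, Cdk4 and Mcm7 overlap expressed genes on the opposite strand. Cdc20, at a mean of 0.314 FPKM over the 8 mice, shares 53 bases with Elovl1, which had 11.2 to 19.2 FPKM.

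Thymidylate synthase (Tyms), which makes dTMP from dUMP, averaged 3.83 ± 1.05 FPKM on the HFrD, against 3.90 ± 1.56 FPKM on the ND, a log2 fold change of 0.0037 whose 95% interval ran from -0.51 to 0.51. Of the 4 genes of nucleotide supply, then, Rrm2 was called and Rrm1, Tk1 and Tyms were not, and their summed levels overlapped between diets.

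**Figure D2:**
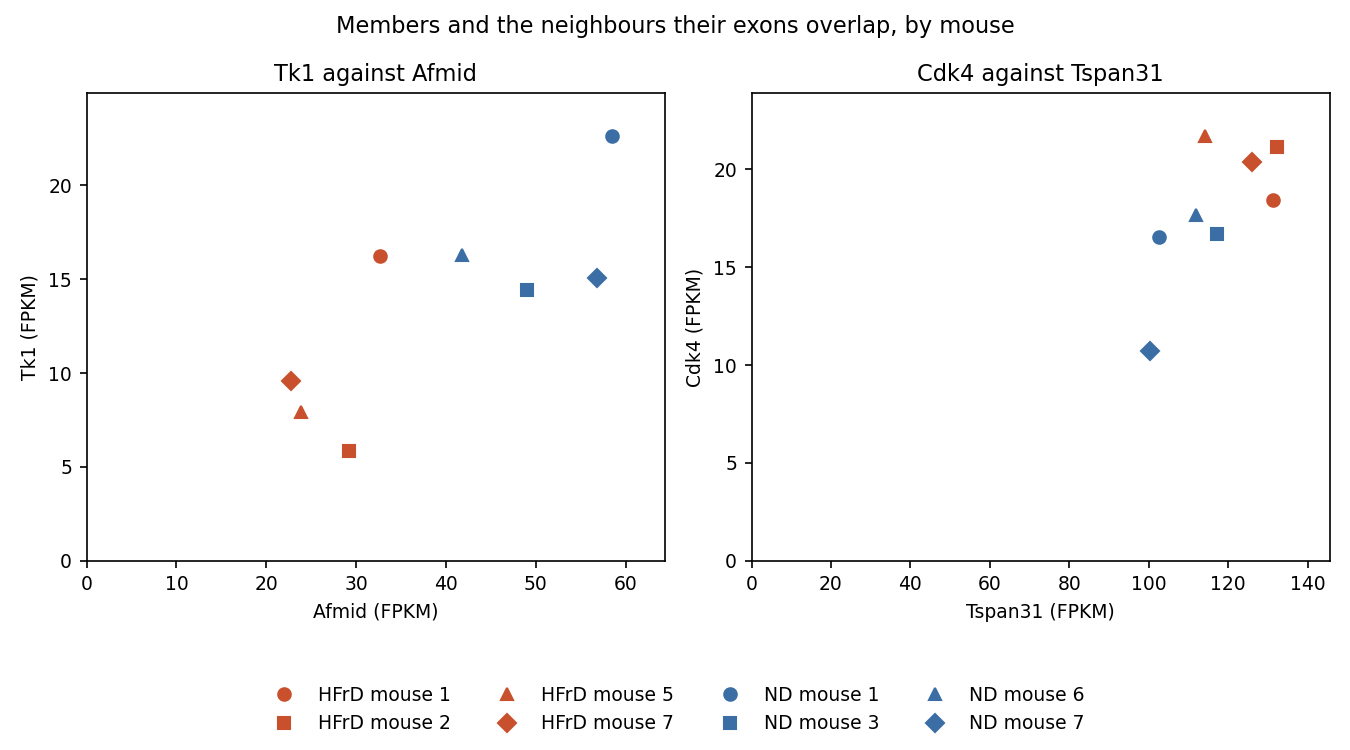
FPKM of Tk1 against its overlapping neighbour Afmid (left) and of Cdk4 against its overlapping neighbour Tspan31 (right), with 1 point per mouse, red for HFrD and blue for ND. HFrD mice lay between 22.8 and 32.7 FPKM of Afmid and ND mice between 41.8 and 58.5 FPKM, with the lower Tk1 values mostly in HFrD mice.

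Among the cyclins, Ccne1 was called at a low level. It had 1.13, 0.538, 1.10 and 0.589 FPKM in HFrD mice, against 0, 0.311, 0.190 and 0.265 FPKM in ND mice. All HFrD values exceeded all ND values, with a log2 fold change of 0.62 (SE 0.16, limma adjusted p = 0.0400) and a ratio of means of 4.38. The estimate behind these values is 58.1 fragments over the 4 HFrD libraries and 11.5 over the 4 ND libraries, with 0 to 18.2 in any 1 library. With single mice removed, Ccne1 met the FPKM minimum in 6 of 8 fits and was called in 1 of those (adjusted p at most 0.101, without ND mouse 1). Its call was also lost with a pseudocount of 0.1 in place of 1, where the log2 fold change was 1.81 (limma adjusted p = 0.0574), and after quantile normalization, at 0.51 (limma adjusted p = 0.0807). Ccne2, the other E-type cyclin, was not called. Ccne2 had 1.22, 1.23, 0.489 and 1.26 FPKM in HFrD mice, against 1.16, 1.27, 1.30 and 0.714 FPKM in ND mice, a log2 fold change of -0.05 (SE 0.17, limma adjusted p = 0.882), and its sign turned positive without HFrD mouse 5, where its level was lowest.

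The D-type cyclins, which couple growth signals to entry into G1, were the most abundant cyclins here. Ccnd3 had 10.2, 9.31, 8.90 and 8.98 FPKM in HFrD mice, against 7.07, 7.92, 6.11 and 7.60 FPKM in ND mice, with a log2 fold change of 0.35 (SE 0.10, limma adjusted p = 0.0633). Ccnd2 had 3.63, 3.58, 3.26 and 3.66 FPKM in HFrD mice, against 2.61, 3.25, 2.49 and 3.21 FPKM in ND mice, with a log2 fold change of 0.23 (SE 0.11, limma adjusted p = 0.240). HFrD and ND values did not overlap for either gene, yet neither passed the adjusted threshold. Ccnd1, a cyclin known to rise early in liver regeneration, had 6.85, 7.28, 8.27 and 13.0 FPKM in HFrD mice, against 5.50, 6.59, 7.74 and 4.71 FPKM in ND mice, with a log2 fold change of 0.44 (SE 0.20, limma adjusted p = 0.189). HFrD mouse 7 was highest and the groups overlapped. The summed level of the 8 cyclins was 24.5, 23.3, 22.2 and 29.1 in HFrD mice, against 16.5, 19.8, 18.7 and 17.3 in ND mice, again without overlap, and came mainly from Ccnd1, Ccnd2 and Ccnd3.

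No CDK passed the test. Cdk4, a partner of the D-type cyclins and the most abundant CDK of the list, had 18.4, 21.1, 21.7 and 20.4 FPKM in HFrD mice, against 16.5, 16.7, 17.7 and 10.7 FPKM in ND mice, with a log2 fold change of 0.40 (SE 0.14, limma adjusted p = 0.110). The groups did not overlap, although ND mouse 7 stood below the other ND mice by more than the rest of that group's spread. Exons of Cdk4 share 641 bases with Tspan31 on the opposite strand, and Tspan31 was abundant, at 131, 132, 114 and 126 FPKM in HFrD mice, against 103, 117, 112 and 100 FPKM in ND mice. Divided by Tspan31, Cdk4 gave 0.140 to 0.190 in the HFrD and 0.107 to 0.161 in the ND group, with overlapping ranges. Cdk6, the other partner of the D-type cyclins, pointed the other way. It averaged 5.45 ± 1.05 FPKM on the HFrD, against 6.88 ± 0.873 FPKM on the ND, with a log2 fold change of -0.30 (SE 0.14, limma adjusted p = 0.217). Cdk2, the kinase of cyclin E, averaged 3.73 ± 0.421 FPKM on the HFrD, against 3.40 ± 0.763 FPKM on the ND, and Cdk1, the kinase of mitotic entry, 1.34 ± 0.784 FPKM on the HFrD, against 0.982 ± 0.649 FPKM on the ND. Both overlapped between diets. Cdk1 varied widely within both diets, from 0.311 FPKM in HFrD mouse 5 to 2.19 FPKM in HFrD mouse 7 and from 0.127 FPKM in ND mouse 3 to 1.56 FPKM in ND mouse 6, and its sign changed without ND mouse 3.

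**Figure D3:**
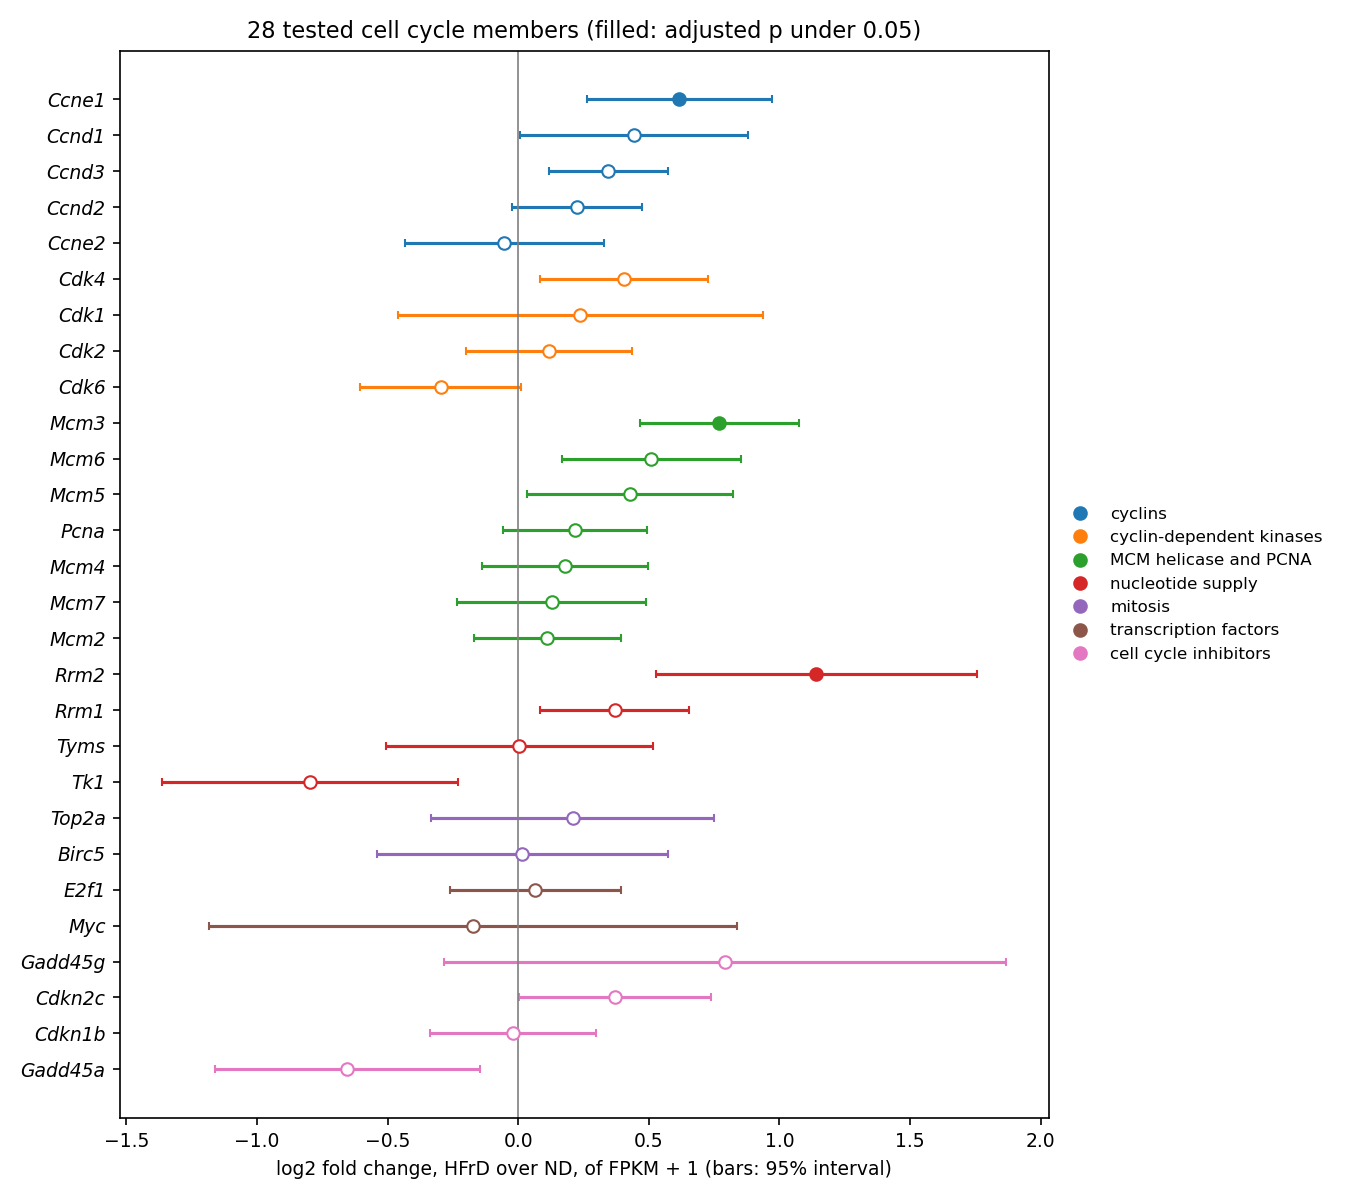
Log2 fold change of FPKM + 1, HFrD over ND (horizontal axis), with its unadjusted 95% interval, for the 28 tested genes grouped by role (colours) and ordered by size within a role. The 3 filled points, Ccne1 at 0.62, Mcm3 at 0.77 and Rrm2 at 1.14, passed the adjusted threshold, and Tk1 at -0.80 and Gadd45a at -0.65 lay furthest to the left.

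Taking the 24 tested proliferation genes as a list, the median log2 fold change was 0.21, against 0.01 over all genes tested, with 20 positive and 4 negative values. Over all genes 52.4% were positive. The median of the list was 0.11 after quantile normalization, with 16 of 24 positive, where the median of all genes moved to -0.02. Without HFrD mouse 7 it was 0.13. All 4 HFrD values lay above all 4 ND values in 8 of the 24 genes (Ccnd2, Ccnd3, Ccne1, Cdk4, Mcm3, Mcm5, Mcm6 and Rrm2), beside 9.60% of all genes tested, and below them in none, beside 7.01%. For each of these 8 genes the exact two-sided permutation test gave p = 0.0286, the smallest that 4 against 4 mice allow. Groups that do not overlap always give this p, so it restates the separation and is no further evidence. Of the 8, Ccne1 and Mcm5 averaged 0.191 and 0.379 FPKM in ND mice and met the 0.5 FPKM minimum only through their HFrD values. A gene as low as these in both diets was not tested. At an unadjusted p under 0.05, limma gave 9 of the 24 proliferation genes with a positive and 1 with a negative log2 fold change, beside 14.3% and 11.2% of all genes tested. Without the FPKM minimum, all 35 entered the fit, with a median of 0.22 and 31 positive values, and 2 were called (Ccne1 and Mcm3).

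The number of calls depended on single mice. Only Mcm3 was called without HFrD mouse 5 and without ND mouse 1, 3 or 7, and Mcm3 was the only proliferation gene called without ND mouse 6. There were 2 calls without HFrD mouse 2 (Ccne1 and Mcm3) or 7 (Mcm3 and Rrm2), and 4 without HFrD mouse 1 (Mcm3, Rrm1 and Rrm2 higher, Tk1 lower). With HFrD mouse 1 and ND mouse 7 both left out, a choice made after seeing the data, Mcm3 and Rrm2 were called higher and Tk1 lower.

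Genes of mitosis were near the limit of detection. All but 2 of the 9 mitotic genes fell under 0.5 FPKM on average, as did Ccna2, Ccnb1, Ccnb2 and Foxm1, so 11 proliferation genes could not be tested in the main fit. These 11 include the G2 and M phase cyclins, the proliferation marker Mki67, the spindle checkpoint kinases Bub1 and Bub1b, the mitotic kinases Aurka, Aurkb and Plk1, the anaphase activator Cdc20 and the transcription factor Foxm1. The 4 HFrD values lay above all ND values in none of the 13 genes under the minimum (these 11, Cdkn1a and Gadd45b), beside 2.53% of the 4349 genes under it that were above 0 in a library. Beside these low levels, depth differed between diets. From the steps between low FPKM values, 1 fragment on 1 kilobase was worth 0.0878 to 0.115 FPKM in HFrD and 0.111 to 0.133 FPKM in ND libraries, so the HFrD libraries had 1.13 to 1.49 times, and the ND libraries 0.984 to 1.17 times, the fragments of ND mouse 1. The deeper HFrD libraries can show lower levels.

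Summed over the 11 genes, the FPKM was 5.55, 4.14, 1.60 and 6.47 in HFrD mice, against 2.65, 1.06, 2.73 and 2.76 in ND mice. HFrD mice 1, 2 and 7 lay above all ND mice and HFrD mouse 5 lay between ND mice, so the groups overlapped. The estimated fragments behind the sums were 166, 139, 54.2 and 250 in HFrD mice, against 76.7, 29.2, 64.5 and 66.3 in ND mice. Of the 11 genes, 10, 10, 7 and 11 were above 0 in HFrD mice and 8, 6, 10 and 11 in ND mice. Mki67, which is found in cycling cells of any type, had 0.560, 0.337, 0.187 and 0.994 FPKM in HFrD mice, against 0.172, 0.186, 0.126 and 0.202 FPKM in ND mice. HFrD mice 1, 2 and 7 were above the ND range and HFrD mouse 5 was within it (exact two-sided permutation p = 0.0571). Ccnb1, the cyclin of mitotic entry, was listed at 0 in HFrD mouse 5 and in ND mice 3 and 6, with 0.256 to 0.399 FPKM in HFrD mice 1, 2 and 7 and 0.0575 to 0.0675 FPKM in ND mice 1 and 7 (exact two-sided permutation p = 0.143). Bub1 averaged 0.333 ± 0.154 FPKM on the HFrD, against 0.0878 ± 0.130 FPKM on the ND, Bub1b 0.639 ± 0.427 FPKM on the HFrD, against 0.350 ± 0.411 FPKM on the ND and Aurkb 0.471 ± 0.415 FPKM on the HFrD, against 0.234 ± 0.312 FPKM on the ND, all overlapping. Cdc20 averaged 0.331 ± 0.369 FPKM on the HFrD, against 0.298 ± 0.116 FPKM on the ND. Ccna2 averaged 0.506 ± 0.264 FPKM on the HFrD, against 0.374 ± 0.215 FPKM on the ND. For Ccnb2 the means were 0.415 ± 0.375 FPKM (HFrD) and 0.172 ± 0.150 FPKM (ND). Those of Aurka were 0.494 ± 0.532 and 0.270 ± 0.225 FPKM, and those of Plk1 0.0809 ± 0.134 and 0.0446 ± 0.0301 FPKM. These genes overlapped too.

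The 2 mitotic genes that met the minimum were not called. Top2a, which untangles sister DNA, had 1.17, 0.520, 0.260 and 1.55 FPKM in HFrD mice, against 1.13, 0.348, 0.590 and 0.300 FPKM in ND mice, with a log2 fold change of 0.21 (SE 0.24, limma adjusted p = 0.635). Birc5, the survivin of the chromosomal passenger complex, had 0.457, 0.569, 0.251 and 1.37 FPKM in HFrD mice, against 0.585, 0.172, 1.41 and 0.452 FPKM in ND mice, with a log2 fold change of 0.02 (SE 0.25, limma adjusted p = 0.977) that turned negative after quantile normalization and after setting equal medians. Both ranges overlapped widely. HFrD mouse 7 held the highest value for 14 of the 35 proliferation genes, HFrD mouse 1 for 7, HFrD mouse 5 for 4, HFrD mouse 2 and ND mouse 6 for 3 each, ND mice 1 and 3 for 2 each, and ND mouse 7 for none. Among 40 further mitotic genes outside the list, HFrD mouse 7 was highest for 19.

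**Figure D4:**
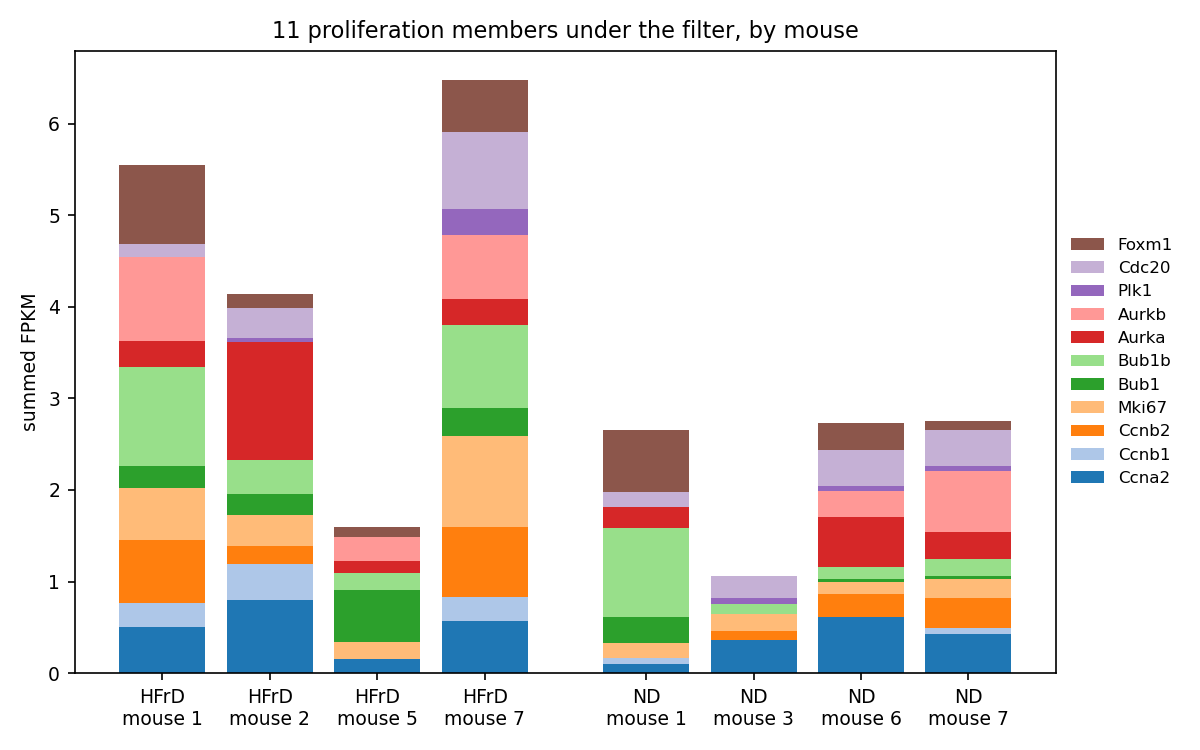
Stacked FPKM of the 11 proliferation genes under the mean of 0.5 FPKM (vertical axis, 1 colour per gene) in each of the 4 HFrD mice (left) and 4 ND mice (right). The stacks reach 1.60 to 6.47 FPKM in HFrD mice and 1.06 to 2.76 FPKM in ND mice, with HFrD mouse 5 inside the ND range.

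Transcription factors of the list did not differ between diets by more than their spread. E2f1, which activates S phase genes, had 0.724, 0.380, 0.639 and 1.10 FPKM in HFrD mice, against 0.717, 0.569, 0.488 and 0.698 FPKM in ND mice, a log2 fold change of 0.07 (SE 0.15, limma adjusted p = 0.819) that turned negative after quantile normalization. Foxm1, which activates G2 and M phase genes, averaged 0.422 ± 0.358 FPKM on the HFrD, against 0.268 ± 0.297 FPKM on the ND. Myc had 4.94, 3.55, 7.29 and 2.97 FPKM in HFrD mice, against 7.53, 10.6, 1.16 and 5.72 FPKM in ND mice, with a log2 fold change of -0.17 (SE 0.45, limma adjusted p = 0.851). ND mice 3 and 6 were the highest and the lowest of all 8 mice, and the sign changed without ND mouse 3.

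Of the 6 inhibitors, Cdkn1a and Gadd45b were under the FPKM minimum and the 4 tested were not called. Cdkn1a, the p21 that p53 induces and that brakes hepatocyte division, had 0.203, 0.613, 1.47 and 0.547 FPKM in HFrD mice, against 0.230, 0.240, 0 and 0.412 FPKM in ND mice. HFrD mouse 5 was the highest and the groups overlapped (exact two-sided permutation p = 0.114). Cdkn1b, the p27 that keeps cells quiescent, averaged 8.99 ± 1.74 FPKM on the HFrD, against 9.08 ± 1.28 FPKM on the ND, with a log2 fold change of -0.02 and a 95% interval of -0.34 to 0.30. Its sign changed without HFrD mouse 5 or 7 or ND mouse 1. Cdkn2c, the p18 inhibitor of CDK4 and CDK6, had 4.35, 2.54, 4.01 and 2.50 FPKM in HFrD mice, against 2.04, 2.07, 2.69 and 2.47 FPKM in ND mice, with a log2 fold change of 0.37 (SE 0.16, limma adjusted p = 0.191). HFrD mice 1 and 5 were above all other mice, while HFrD mice 2 and 7 lay within the ND range.

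The GADD45 genes, growth arrest and DNA damage inducible stress genes, differed in sign. Gadd45a had 3.43, 2.86, 2.93 and 2.30 FPKM in HFrD mice, against 6.87, 7.11, 2.79 and 4.62 FPKM in ND mice, with a log2 fold change of -0.65 (SE 0.23, limma adjusted p = 0.103). Only ND mouse 6 lay within the HFrD range, and without it Gadd45a was called lower (log2 fold change -0.88, adjusted p = 0.0205). Gadd45g had 6.28, 13.1, 21.4 and 11.7 FPKM in HFrD mice, against 9.01, 15.4, 1.98 and 5.66 FPKM in ND mice, with a log2 fold change of 0.79 (SE 0.48, limma adjusted p = 0.341). Both groups of Gadd45g were wide and overlapped, and Gadd45g, like Rrm2, was picked by the study from these libraries. Gadd45b averaged 0.345 ± 0.177 FPKM on the HFrD, against 0.227 ± 0.150 FPKM on the ND. The median over the 4 tested inhibitors was 0.17, with 2 positive and 2 negative values. At an unadjusted p under 0.05, limma gave Cdkn2c with a positive and Gadd45a with a negative value, beside 14.3% and 11.2% of all genes tested.

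Around these 41 genes, 12 lists of related genes held 249 symbols, of which 247 were in the table and 190 were tested. Of the 190, 8 were significantly higher (Pole4, Shmt1, Cenpa, Gas2, Bax, Ddit4, Mxd4 and Mycn) and 4 significantly lower (Ppat, Cdc27, Wee1 and Rbbp4), which is 6.32% beside 9.12% of all genes. The median log2 fold change was 0.04. None of 11 genes of origin licensing and firing passed. Of these, Mcm10, a replication factor that is not part of the MCM ring, was the nearest and the most abundant. It had 35.5, 19.9, 12.0 and 36.9 FPKM in HFrD mice, against 47.7, 53.6, 46.9 and 53.6 FPKM in ND mice, without overlap, and a log2 fold change of -1.05 (SE 0.29, limma adjusted p = 0.0520). Summed over all 17 genes of this list, Mcm10 included, levels were lower on the HFrD without overlap. The sums were 54.1 to 94.6 FPKM in HFrD and 99.0 to 110 FPKM in ND mice. In the replication fork list 1 of 28 was called, Pole4, a small subunit of DNA polymerase epsilon, which averaged 10.9 ± 2.02 FPKM on the HFrD, against 6.95 ± 1.16 FPKM on the ND (log2 fold change 0.58, SE 0.15, limma adjusted p = 0.0363). In the list of other nucleotide synthesis genes 2 of 22 were called. Shmt1, which supplies one-carbon units to thymidylate synthesis, averaged 82.5 ± 8.73 FPKM on the HFrD, against 62.1 ± 3.55 FPKM on the ND (log2 fold change 0.40, SE 0.09, limma adjusted p = 0.0254), and Ppat, the first enzyme of purine synthesis, 6.61 ± 1.35 FPKM on the HFrD, against 10.3 ± 1.01 FPKM on the ND (log2 fold change -0.58, SE 0.14, limma adjusted p = 0.0342).

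Among 15 tested genes of mitosis outside the list, Cenpa, the histone H3 variant of centromeres, was called. It had 3.33, 3.41, 2.27 and 3.01 FPKM in HFrD mice, against 1.54, 2.18, 1.58 and 1.40 FPKM in ND mice, with a log2 fold change of 0.58 (SE 0.14, limma adjusted p = 0.0311). All HFrD values of Cenpa were above all ND values. The 15 genes had a median log2 fold change of 0.17, with 13 positive and 2 negative values, where 52.4% of all genes tested were positive. Summed over all 40 mitotic genes outside the list, levels were 70.6 to 78.7 FPKM in HFrD and 57.6 to 67.8 FPKM in ND mice, without overlap. Of 15 tested subunits and regulators of the anaphase-promoting complex, Cdc27 was lower, at 8.78 ± 0.619 FPKM on the HFrD, against 12.0 ± 1.07 FPKM on the ND (log2 fold change -0.41, SE 0.10, limma adjusted p = 0.0268). Of 10 genes that regulate CDKs by phosphorylation or turnover, Wee1, the kinase that restrains CDK1, was lower, at 2.82 ± 0.652 FPKM on the HFrD, against 4.88 ± 0.805 FPKM on the ND (log2 fold change -0.63, SE 0.15, limma adjusted p = 0.0305). Rbbp4, a histone chaperone that is also a DREAM subunit, was the 1 of 15 E2F, pocket protein and DREAM genes called. It averaged 52.7 ± 9.18 FPKM on the HFrD, against 82.4 ± 13.7 FPKM on the ND (log2 fold change -0.64, SE 0.15, limma adjusted p = 0.0248). E2f6, a repressor of the E2F family, came near the threshold without overlap, at 1.42 ± 1.31 FPKM on the HFrD, against 4.55 ± 1.29 FPKM on the ND (log2 fold change -1.36, SE 0.38, limma adjusted p = 0.0518). Mcm10 and Rbbp4 were also picked by the study from these libraries.

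Mycn, a paralogue of Myc, was significantly higher. It had 0.742, 1.47, 1.78 and 1.93 FPKM in HFrD mice, against 0.395, 0.228, 0.413 and 0.288 FPKM in ND mice, with a log2 fold change of 0.87 (SE 0.17, limma adjusted p = 0.0143), and it was called in 8 of 8 fits with 1 mouse removed. The lowest HFrD value was above the highest ND value. Every ND value of Mycn was under 0.5 FPKM, so Mycn met the minimum only through its HFrD values. Mxd4, which competes with Myc for its partner Max, had 15.8, 13.8, 11.3 and 12.6 FPKM in HFrD mice, against 9.64, 10.2, 9.78 and 9.98 FPKM in ND mice, with a log2 fold change of 0.39 (SE 0.11, limma adjusted p = 0.0481), so 2 of 9 tested genes of the Myc family were called. Of 20 genes of p53 and its targets 2 were called. Bax, which triggers apoptosis at mitochondria, had 7.50, 9.59, 7.39 and 7.39 FPKM in HFrD mice, against 4.55, 4.02, 5.01 and 5.56 FPKM in ND mice, with a log2 fold change of 0.63 (SE 0.12, limma adjusted p = 0.0139), and was likewise called in 8 of 8 such fits. Ddit4, an inhibitor of mTORC1 induced by stress, had 1.95, 4.51, 10.9 and 5.11 FPKM in HFrD mice, against 0.884, 0.625, 1.38 and 1.73 FPKM in ND mice, with a log2 fold change of 1.47 (SE 0.36, limma adjusted p = 0.0311). In the list of other growth arrest genes, Gas2 was the 1 of 16 called, at 25.9 ± 4.58 FPKM on the HFrD, against 16.7 ± 1.88 FPKM on the ND (log2 fold change 0.59, SE 0.13, limma adjusted p = 0.0225). None of 16 genes of the DNA damage response and none of 15 immediate early genes passed.

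Markers of other liver cells moved with diet beside these results. Of 9 tested Kupffer cell markers, 8 were significantly higher in HFrD livers (Clec4f, Vsig4, Emr1, Cd5l, Marco, C1qa, C1qb and C1qc), and all 9 summed to 180 to 266 FPKM in HFrD and 85.6 to 138 FPKM in ND mice. Monocyte and macrophage markers summed to 59.1 to 95.9 FPKM in HFrD and 33.4 to 57.1 FPKM in ND mice, with Csf1r called higher among 5 tested. Stellate cell markers summed to 120 to 123 FPKM in HFrD and 83.9 to 116 FPKM in ND mice with none of 8 called, and among 7 sinusoidal endothelium markers Lyve1 was higher. Neutrophil, T and NK cell, B and plasma cell and cholangiocyte sums overlapped with none called. Few of these markers met the FPKM minimum. Tested were 2 of 7 neutrophil, 1 of 8 T and NK cell, 2 of 6 B and plasma cell and 3 of 6 cholangiocyte markers. Of 5 erythroid markers Alas2 was lower, and of 9 hepatocyte markers Ttr was higher, with hepatocyte sums overlapping. No Kupffer or hepatocyte marker was at 0 in all libraries, and Alb, at a mean of 33791 FPKM over HFrD mice and 27975 FPKM over ND mice, was the most abundant hepatocyte marker. HFrD mouse 1 had the highest Kupffer marker sum and the highest sum of the 6 helicase subunits with Pcna (35.4 FPKM). Pcna alone gave 23.4 FPKM of that sum. By gene, HFrD mouse 7 was highest for 4 of these 7 genes and HFrD mouse 1 for 2. Summed over the 35 proliferation genes, HFrD mouse 1 was highest at 127 FPKM, with HFrD mouse 7 next at 126 FPKM. Pcna and Tk1 gave 23.4 and 16.2 FPKM of this sum in HFrD mouse 1, and 15.5 and 9.60 FPKM in HFrD mouse 7. HFrD mouse 7 was highest for 4 of the 9 mitotic genes of the list and HFrD mouse 1 for 2. The part of cell composition in the differences of the cell cycle genes was not tested.

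**Figure D5:**
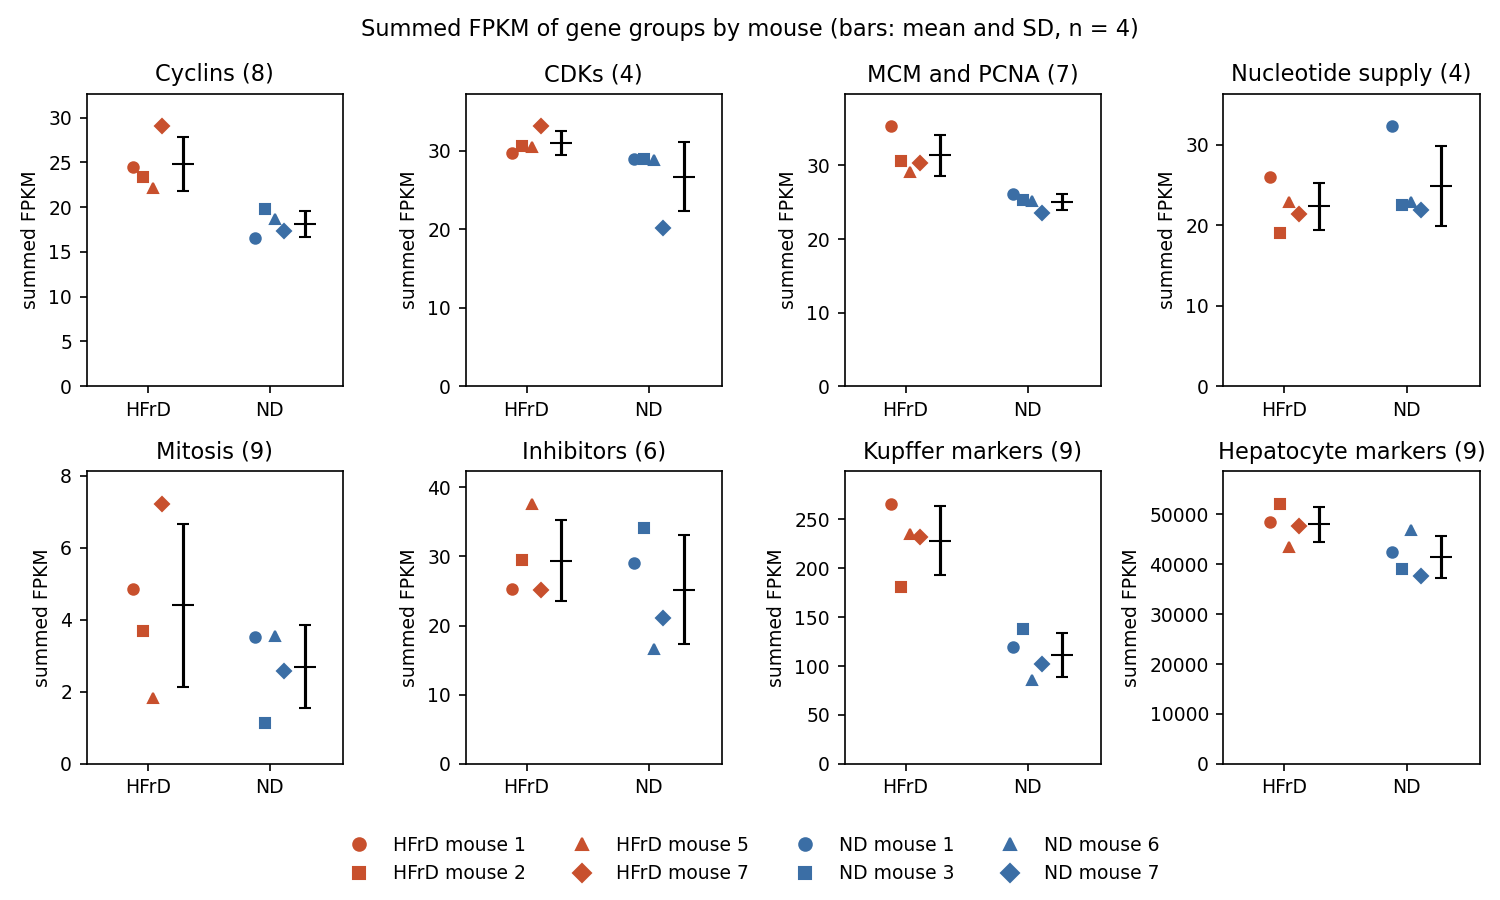
Summed FPKM (vertical axes) of 6 groups of the cell cycle genes and of Kupffer cell and hepatocyte markers, for each of the 4 HFrD mice (left, red) and 4 ND mice (right, blue), with bars for the mean and SD. Sums of cyclins (22.2 to 29.1 in HFrD, 16.5 to 19.8 in ND), CDKs, MCM with PCNA, and Kupffer markers did not overlap between diets, while nucleotide supply, mitosis, inhibitors and hepatocyte markers did. The CDK sums (29.7 to 33.1 in HFrD, 20.1 to 28.9 in ND) came mostly from Cdk4, and Cdk1, Cdk2 and Cdk6 each overlapped.

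Over all genes, 59.6% of the calls were higher in HFrD livers, a share that was 51.2% after quantile normalization and 47.3% with equal medians, and Mcm3 was called higher under both. The labels name no litter, cage or run, and no split of the libraries by batch could be made.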

How the data were processed

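RNA-Seq libraries of whole liver from 4 HFrD and 4 ND mice, 1 per mouse, were analysed. The authors trimmed reads with cutadapt 1.9.3, aligned them to mm10 with HISAT2 2.0.4 and, per the submitters' processing notes, used Cufflinks and Cuffdiff (versions not given in the sources used here). The values are FPKM per gene as deposited by the authors, which are not counts. They were tested as log2(FPKM + 1) with limma 3.58.1 (trended empirical Bayes, R 4.3.3) over 11476 genes averaging 0.5 FPKM or more, with Benjamini-Hochberg adjustment over all of them. Exact permutation tests used all 70 relabellings of the mice.

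Fragments were estimated from steps between low FPKM values of 2183 single-transcript genes. Of these low values, 85.2% to 88.6% per library lay within 0.1 of a whole number of fragments. Fragments per gene use the longest coding transcript of GENCODE M21 (GRCm38). The 95% intervals of log2 fold changes come from limma and measure the spread between mice. The table's loci often span several genes, so exon overlaps were taken from GENCODE M21. Promoters came from RefSeq.

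The 41 genes and all lists were chosen with earlier results of these data known. All 41 are described. Other genes could be named if they had 1 of the 3 smallest adjusted p or the highest mean FPKM in their list. Markers that passed the test could be named too. Of the genes of the related lists that met this rule, only those called were given, besides Mcm10 and E2f6 near the threshold. Afmid, Tspan31 and the further overlapping genes were chosen after the overlaps were seen. The p-values measure the spread between mice. Alternatives were the pseudocount, the FPKM minimum, quantile normalization, equal medians, array weights, no variance trend, a replicate block and leaving out each mouse. The fit was tested on simulated data. Of 50 genes given a log2 change of 0.5, 11 were called (22%), and of 50 given a change of 1, 43 were called (86%). A gene that was not called may therefore still differ by about 0.5.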

Additional observations from a re-analysis of the deposited data

Results flagged for a closer look

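In 82 groups of 4 mice (41 genes, 2 diets), the highest or lowest mouse was compared with the other 3, and 8 values stood apart. Chance alone gives about 1 such value in 20 groups. Among genes of G1 and S phase, Mcm5 was 1.67 FPKM in HFrD mouse 7 and 0.599 to 0.717 in the rest of its diet group. Ccne2 was 0.489 FPKM in HFrD mouse 5 and 1.22 to 1.26 in the rest of that group. Cdk4 was 10.7 FPKM in ND mouse 7 and 16.5 to 17.7 in the rest.

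The other 5 values belong to mitotic genes, at levels that rest on few fragments. In HFrD mouse 2, Aurka was 1.29 FPKM, with the rest at 0.131 to 0.281. Plk1 was 0.2796 FPKM in HFrD mouse 7, with the rest at 0 to 0.0439, and was listed at 0 in ND mouse 1, with the rest at 0.0557 to 0.0660. Both spindle checkpoint kinases were high in ND mouse 1, with Bub1 at 0.281 FPKM beside 0 to 0.0352, and Bub1b at 0.965 FPKM beside 0.114 to 0.193, in the rest of the ND group.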

How the results depend on the processing

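Of the 3 proliferation calls, that of Mcm3 held under every alternative except the replicate block. Over the fits that left out 1 mouse, the count of proliferation calls was 1 to 4, of inhibitor calls 0 to 1 (Gadd45a, without ND mouse 6), of calls in the related lists 2 to 12 (12 with all mice), and of calls over all genes 539 to 1293 (1047 with all mice). With array weights 4 proliferation genes were called, Tk1 (lower) besides the 3. After quantile normalization 1 proliferation gene was called, and without an FPKM minimum 7 genes of the related lists. Mouse numbers are shared by 1 HFrD and 1 ND mouse for numbers 1 and 7 only, and these are different animals whose deviations had correlations of 0.0774 and -0.0137, so the numbers do not pair them. With the replicate block, which only those 4 libraries inform, 0 proliferation, 0 related and 2 of all genes were called, and adjusted p was 0.264 for Mcm3, 0.240 for Rrm2 and 0.344 for Ccne1.

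Signs that turned all belong to genes not called. With the block, the log2 fold change of Ccne2 was 0.22. After quantile normalization it was -0.0026 for Mcm2, -0.051 for Tyms, -0.11 for Birc5 and -0.049 for E2f1, with equal medians -0.020 for Tyms and -0.0076 for Birc5, with array weights -0.076 for Tyms, and without HFrD mouse 1 and ND mouse 7, chosen after seeing the data, -0.16 for Tyms. Leaving out 1 mouse gave -0.15 to 0.094 for Ccne2, -0.010 to 0.49 for Cdk1, -0.14 to 0.20 for Tyms, -0.17 to 0.21 for Birc5, -0.037 to 0.16 for E2f1, -0.68 to 0.13 for Myc and -0.11 to 0.059 for Cdkn1b. The causes were not tested.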
